A study of Mus musculus with 22 samples.

Results

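Mouse intestinal organoids given plasma-activated medium (PAM) from day 1 were compared with organoids of the same lines given indirect cold atmospheric plasma (CAP) from day 1. The comparison holds 6 of the 22 RNA-seq libraries of the series, 3 for each medium, and was chosen by the treatment labels of the libraries, with each PAM library paired to the indirect library of the same organoid line. Both media reach organoids that never met the plasma plume. For indirect CAP the medium was exposed while it covered another organoid culture, and for PAM it was exposed alone. The comparison therefore asks whether contact of the medium with other organoids alters what it does to naive organoids. The series holds no medium taken from organoids without plasma. Contact with organoids as such and their presence during the plasma exposure cannot be told apart.

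The organoids were grown from crypts of the duodenum of wild type adult mice, which the study's methods give as outbred CD1 animals aged 2 months, each line coming from 1 mouse. Lines 1 and 2 were at passage 12 and 14, and line 4 at passage 4 by the labels and 2 by the study's methods. Line 3 gave an untreated library only. The plasma was run at 50 W for 60 s for both media, and per the study's methods each medium was given at day 1, kept for 24 h, replaced with fresh medium at day 2, and the cultures ended at day 3. The labels give 30 min for both groups, so the length of exposure is not certain, but it is the same for both media under either source. All lines were grown in medium with EGF, Noggin and R-spondin 1. The series also holds 4 untreated libraries, which are printed here as the level without treatment, 6 of direct CAP, and 6 of the same media given from day 2.

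Intestinal stem cells sit at the base of the crypt, where Wnt signals keep them dividing and Notch signals keep their progeny from entering the secretory lineages. Their daughters become absorptive enterocytes or the goblet, Paneth, enteroendocrine and tuft cells. Plasma leaves long-lived reactive oxygen and nitrogen species in a liquid, and an epithelium that loses its stem cells to injury is known to take up a regenerative programme that resembles fetal gut.

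The values are read counts scaled to 20 M per library (M for mega; CP20M in the study), not divided by gene length, so levels are compared between libraries and not between genes. The 6 libraries held an estimated 19.4 to 28.4 M reads on genes. Between 17716 and 17861 genes had a value of 10 or more in the indirect libraries, and between 16554 and 17302 in the PAM libraries. Mitochondrial genes took 1.05 to 1.5% of the indirect libraries and 0.789 to 1.02% of the PAM libraries. The libraries carried epithelial genes, and of 20 markers of fibroblasts, muscle, endothelium, immune cells, glia and neurons, 14 were under 10 in all 6 libraries and 4 (Col3a1, Dcn, Kdr and Lum) were at 0 in all. The label names the cell type as stem cells, but the libraries also held the products of the differentiated lineages described here. In RNA from whole cultures, fewer cells of a type and less RNA per cell cannot be told apart.

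With PAM, stem cell, Notch, cell cycle and ribosome biogenesis genes were lower than with indirect CAP, and genes of the fetal-like regenerative programme, keratins and a group of surface antigens were higher. Of 17634 genes tested with limma, 894 were higher and 2275 were lower at an adjusted p under 0.05, and these are the genes named as called, risen or fallen here. They were 5.07% and 12.9% of the genes tested. The counts of list members given below are to be read beside these shares. None of them passed the study's threshold of an adjusted p under 0.01 with a log2 fold change of at least 1, where limma counted 0 genes, against 6822 at an unadjusted p under 0.05, and the lowest adjusted p was 0.0203. All 3169 called genes moved the same way in all 3 lines, which a call from 3 pairs largely requires. The PAM values did not overlap the indirect values for 447 of the 894 and 1661 of the 2275, against 5.78% and 20% of all genes tested in the 2 directions. The called genes were selected on these same differences, so neither count is independent support for the calls. Of the called genes, 206 were higher and 401 lower by a log2 fold change of at least 1. The median of all genes tested was -0.14. Quantile normalization shifted that median by 0.12 and left 1027 genes higher and 919 lower, so the excess of lower genes depends on the scaling.

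**Figure D1:**
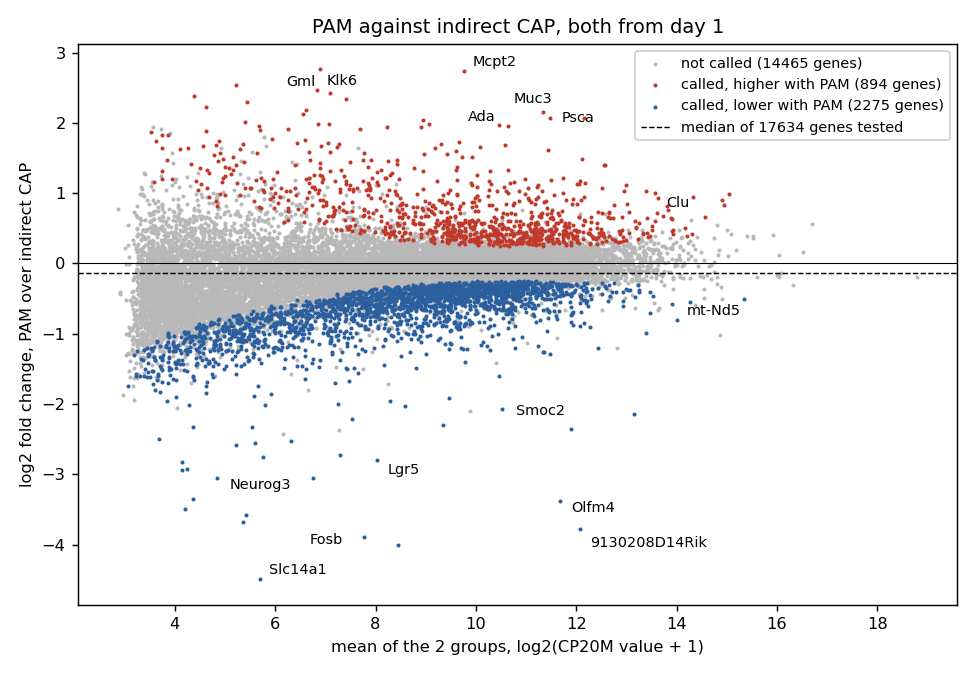
Log2 fold change of PAM over indirect CAP from day 1 for each of the 17634 genes tested (y axis) against the mean level of both groups as log2(CP20M value + 1) (x axis). The 894 genes called higher and the 2275 called lower are coloured, the dashed line is the median of -0.14, and the largest labelled falls (Slc14a1, Fosb, 9130208D14Rik, Olfm4) lie further from 0 than the largest labelled rises (Mcpt2, Klk6, Gml, Muc3).

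Each line gave 1 library per medium, so the p-values measure the spread between 3 lines, and the calls depend on the pairing of the libraries by line. Without the line as a block no gene was called (3820 at an unadjusted p under 0.05), and none was called without line 2. With all 18 treated libraries in one fit, so that the spread came from 6 groups, 34 genes were higher and 107 lower past the study's threshold, 0.734% of the 19206 tested. The lines differed in how far they moved. The SD of the log2 differences over 13139 genes was 0.556 in line 1, 0.463 in line 2 and 0.290 in line 4. Genes that differed by more than 1 on the log2 scale numbered 911, 578 and 144.

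Of the lists in the plot of gene lists, stem cell markers had the lowest median. Of 17 tested, 10 fell and 1 rose, with a median log2 fold change of -0.83, against -0.14 for all genes. Olfm4, a secreted glycoprotein that marks crypt base columnar cells, had values of 8373, 6311 and 3046 with indirect CAP in lines 1, 2 and 4, and of 212, 612 and 1098 with PAM. Every PAM value was below every indirect value, and the gap was widest in line 1 and narrowest in line 4. The log2 fold change was -3.38 ± 0.61 (SE, n = 3 pairs, limma adjusted p = 0.0244), from a level of 22850 in the untreated libraries. Lgr5, the R-spondin receptor used to define these stem cells, went from 566, 620 and 186 to 32, 110 and 53. All PAM values were again below all indirect values, and the change was -2.79 ± 0.40 (adjusted p = 0.0216). Smoc2, a matricellular protein of the same cells, went from 2985, 2753 and 1408 to 379, 619 and 659, a change of -2.07 ± 0.31 (adjusted p = 0.0216).

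For all of these the indirect libraries were themselves under the untreated ones, where Lgr5 lay between 1281 and 2822 and Smoc2 between 5705 and 6606. The RNA-binding protein Msi1 (-1.32), the water channel Aqp4 (-1.28), the Myc target Cdca7 (-1.15), Tnfrsf19 (-1.0), the orphan receptor Nr5a2 (-0.73), the EGF receptor antagonist Lrig1 (-0.68) and the sodium-potassium-chloride cotransporter Slc12a2 (-0.57) also fell. Prom1, a membrane glycoprotein of progenitors that is also found in other epithelial cells, rose by 0.59 (adjusted p = 0.0363). Of the 17 members 2 were fitted higher, and the other, at 0.82, was not called. After quantile normalization 1 member was called higher, and it was not Prom1. Ascl2, the transcription factor of the stem cell state, was at 343, 494 and 200 with indirect CAP and at 147, 181 and 188 with PAM. Its adjusted p was 0.0506, so it was not called. The list's median was -1.13 in line 1, -0.79 in line 2 and -0.40 in line 4.

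Of 15 Wnt target genes tested, 4 fell and none rose (2 after quantile normalization), with a median of -0.19, close to that of all genes. Axin2, a feedback inhibitor of Wnt signalling, fell by 1.61 on the log2 scale (SE 0.26, adjusted p = 0.022), from 2773, 2598 and 1096 to 536, 811 and 642. Its groups did not overlap. The others were Lgr5, Tnfrsf19 and the ubiquitin ligase Znrf3 (-0.50), which removes Wnt receptors from the membrane.

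Of 14 Notch pathway and lineage genes, 5 fell and none rose (3 after quantile normalization), with a median of -0.57. Notch1, the receptor, was at 2127, 2224 and 1318 with indirect CAP and at 1138, 1319 and 820 with PAM. PAM was lower in every line by a similar amount, although the values of PAM in line 2 and indirect CAP in line 4 were next to each other, and the change was -0.78 ± 0.07 (adjusted p = 0.0216). The glycosyltransferase Lfng (-1.24 ± 0.22), the ligand Dll1 (-0.65 ± 0.16), the DNA-binding partner Rbpj (-0.52 ± 0.10) and the target Nrarp (-0.62 ± 0.12) fell too.

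**Figure D2:**
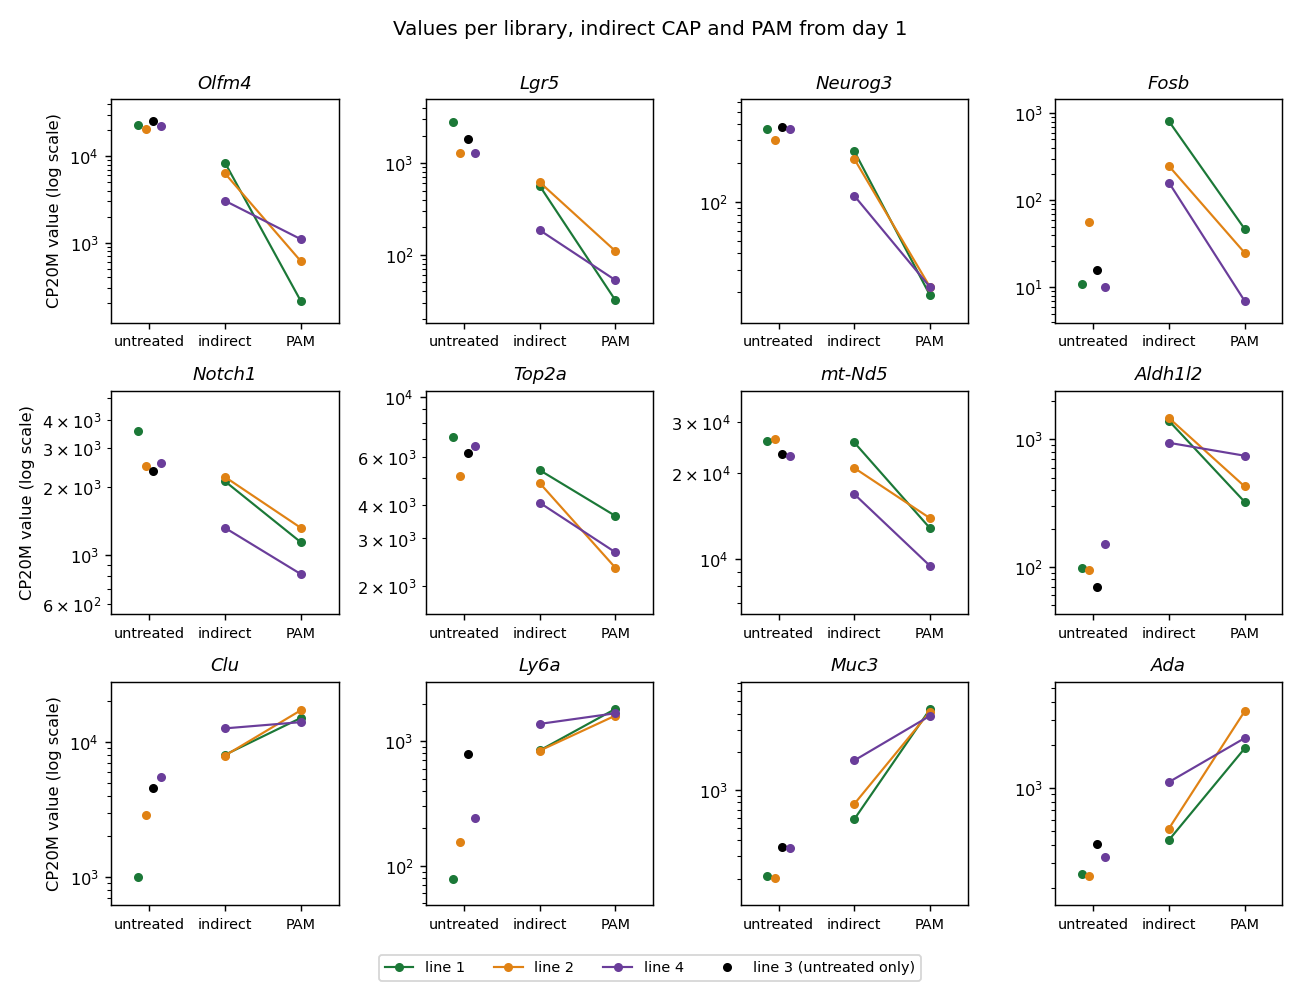
CP20M values on a log axis for 12 genes in the 4 untreated libraries and in the indirect CAP and PAM libraries from day 1, with lines joining the libraries of one organoid line. Olfm4, Lgr5, Neurog3, Fosb, Notch1, Top2a, mt-Nd5 and Aldh1l2 go down from indirect CAP to PAM in lines 1, 2 and 4, and Clu, Ly6a, Muc3 and Ada go up.

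Genes of the cell cycle fell together. Of 43 S phase genes tested 27 fell, of 54 G2/M genes 41 fell, and none of either list rose, with medians of -0.44 and -0.46. After quantile normalization 15 and 26 fell, with 18 libraries in the fit 12 and 24 fell, and none rose in either. Top2a, the topoisomerase of dividing cells, went from 5358, 4803 and 4064 to 3633, 2340 and 2668. All PAM values were under all indirect values, with a change of -0.73 ± 0.11 (adjusted p = 0.0216). The chromatin protein Hmgb2 (-1.17 ± 0.14), the DNA polymerase subunit Pola1 (-0.79 ± 0.12) and the proliferation antigen Mki67 (-0.46 ± 0.10, adjusted p = 0.0322) fell as well. The falls were not graded by line as those of the stem cell markers were, with G2/M medians of -0.32, -0.65 and -0.45 in lines 1, 2 and 4. Of 28 Myc target and ribosome biogenesis genes, 15 fell and none rose (median -0.35; 10 fell after quantile normalization), among them the pseudouridine synthase Dkc1 (-0.55 ± 0.09) and the nucleolar methyltransferase Fbl (-0.46 ± 0.08).

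In none of the lists for differentiated lineages were most members called. In the enteroendocrine list, Neurog3, the transcription factor that commits progenitors to this lineage, was at 248, 216 and 112 with indirect CAP and at 19, 22 and 22 with PAM. The PAM values were nearly equal in the 3 lines and far below all others, with 304 to 383 in untreated libraries, and the change was -3.06 ± 0.27 (adjusted p = 0.0216). Cpe, a carboxypeptidase that matures peptide hormones, moved the opposite way, from 212, 358 and 670 to 947, 1033 and 1462, a rise of 1.60 ± 0.18 (adjusted p = 0.0216), with groups that did not overlap. The hormone neurotensin (Nts, 1.0) and the prohormone convertase Pcsk1 (0.68) also rose, both without a call in the fit of 18 libraries, and the other 17 of 21 were not called. With 18 libraries in the fit 3 of the list were called lower and 1 higher. Chga, a granule protein of mature enteroendocrine cells, was at 423, 1560 and 1597 with indirect CAP and at 324, 2434 and 1735 with PAM, a fitted difference of 0.13 ± 0.18 (adjusted p = 0.622).

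Of 20 goblet cell genes 4 rose and none fell. The mucus proteins Clca1 (1.04 ± 0.14), Zg16 (0.65 ± 0.08) and Tff3 (0.57 ± 0.09) and Bcas1 (0.88 ± 0.15) were called, while the main mucin Muc2 was at 5919, 17540 and 5108 against 6032, 22175 and 7229 (0.29 ± 0.11, adjusted p = 0.105). For Clca1 and Zg16 the lines were further apart than the media, and the groups overlapped. All 4 calls were lost with 18 libraries in the fit (Clca1 adjusted p = 0.148), where 1 other goblet cell gene was called lower and none higher. Of 16 Paneth cell genes only the stress protein Nupr1, which is on 2 of the lists, was called (0.38), and not with 18 libraries in the fit. There, 1 other Paneth cell gene was called lower and none higher. Lyz1, the Paneth cell lysozyme, was at 7179, 11584 and 3757 with indirect CAP and at 2464, 10716 and 4220 with PAM, with no common direction over the lines (-0.50 ± 0.30, adjusted p = 0.26).

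Of 28 enterocyte genes 4 rose and none fell. Ada, adenosine deaminase, went from 431, 518 and 1096 to 1883, 3422 and 2223, a change of 1.96 ± 0.28 (adjusted p = 0.0216). All PAM values were above all indirect values, which in turn were above the 241 to 406 of untreated libraries. Krt20, a keratin of the shed villus tip, rose by 1.19 ± 0.16, Cyp3a11 by 0.64 and the peptide transporter Slc15a1 by 0.49, of which these 3 lost the call with 18 libraries in the fit. Alpi, the brush border alkaline phosphatase, was at 34994, 29760 and 48166 against 42868, 43925 and 60312 (0.39 ± 0.13, adjusted p = 0.0826), and the disaccharidase Sis was lower in all lines without passing the test (-1.01 ± 0.36, adjusted p = 0.0914). Of 10 tuft cell genes, the prostaglandin synthase Ptgs1 rose (1.03) and the cytokine receptor Il17rb (-0.74) and the taste receptor Tas1r3 (-0.56) fell, the falls being lost with 18 libraries in the fit and after quantile normalization. Dclk1, the usual tuft cell marker, was too low to be tested.

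The fetal-like and regeneration genes had the highest median of the same lists. Of 29 tested 21 rose and none fell, with a median of 0.83. Clu, the secreted chaperone that marks revival stem cells, was at 8057, 7953 and 12642 with indirect CAP and at 15085, 17201 and 14058 with PAM. No PAM value reached down to an indirect value, but line 4 moved little, and the change was 0.72 ± 0.18 (adjusted p = 0.0412). Ly6a, the surface antigen Sca-1 of the regenerating epithelium, went from 842, 839 and 1375 to 1813, 1603 and 1674 (0.77 ± 0.15, adjusted p = 0.0266). Areg, an EGF receptor ligand, went from 3005, 3562 and 4455 to 4362, 5371 and 6387 (0.55 ± 0.07, adjusted p = 0.0216), with lines 1 and 2 with PAM on both sides of line 4 with indirect CAP. All of these were already higher with indirect CAP than in untreated libraries, where Clu lay between 998 and 5506 and Areg between 198 and 882.

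The largest rises in the list were those of the desmosomal cadherin Dsg3 (1.66 ± 0.35), the alarmin Il33 (1.31 ± 0.32) and the prostaglandin synthase Ptgs2 (1.31 ± 0.33). The mesothelin gene Msln (0.95), the annexins Anxa1, Anxa2, Anxa3, Anxa5 and Anxa8 (0.78 to 1.06) and the YAP targets Ctgf (0.83) and Ankrd1 (0.94) rose too. The list's median was 1.11 in line 1, 1.11 in line 2 and 0.23 in line 4. In line 4 the indirect values of Clu, Ly6a, Il33, Msln and Krt7 were already the highest of the 3 lines. With 18 libraries in the fit, where 3.69% of all genes were called higher and 10.3% lower, 14 of the list were called higher, and Clu (adjusted p = 0.202), Ly6a (0.0769) and Areg (0.121) were not.

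Of 11 keratins 6 rose and none fell (median 0.58), with Krt7 at 9998, 8188 and 14382 against 22160, 14973 and 17034 (0.75 ± 0.17, adjusted p = 0.0337). Krt79 (1.26), Krt20 (1.19), Krt14 (1.16), Krt23 (0.90) and Krt18 (0.51) were the others. Of 18 tight junction genes, the claudins Cldn18 (1.41), Cldn4 (0.75) and Cldn23 (0.40) rose and none fell. All 3 lost the call with 18 libraries in the fit. Muc3, a membrane-bound mucin of the brush border, went from 588, 776 and 1712 to 4343, 4152 and 3851. The 3 PAM values were within a narrow range above all others, and the change was 2.16 ± 0.29 (adjusted p = 0.0216), on a level of 201 to 353 in untreated libraries.

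Several of the largest rises lie side by side on chromosome 15 and code for small proteins of the Ly6 family, most of which are held at the cell surface by a lipid anchor. Between Psca and Ly6f (chr15:74714839-75272235, GRCm38) 15 genes were tested, of which 8 rose and none fell, with a median of 0.77 and a range of -0.25 to 2.76. This stretch was singled out after its values were seen. Gml went from 24, 31 and 88 to 194, 265 and 210 (2.42 ± 0.35, adjusted p = 0.0216), with all PAM values above all indirect values and an untreated mean of 6.25. The neighbouring 2010109I03Rik (2.76 ± 0.56), Gml2 (2.19 ± 0.35), Psca (2.07 ± 0.28), Ly6d (1.98 ± 0.24) and Lynx1 (1.17) rose as well, and Ly6e (0.02) and Slurp1 (-0.25) were not called. Genes of this family resemble each other, and how reads common to Gml and Gml2 were counted is not given in the sources used here.

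Other large rises were those of the mast cell protease gene Mcpt2, from 76, 105 and 865 to 1436, 743 and 1963 (2.74 ± 0.49, adjusted p = 0.0241), and of the kallikrein Klk6, from 30, 19 and 62 to 239, 185 and 146 (2.46 ± 0.37, adjusted p = 0.0216). For Mcpt2 the value of line 2 with PAM was below that of line 4 with indirect CAP, and for Klk6 the groups did not overlap. Tprg (2.53), the prolactin family member Prl2c3 (2.34) and the kidney cadherin Cdh16 (2.13) complete the 10 largest rises together with Pdk4 and the genes above.

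The largest falls, apart from the stem cell genes, included a stretch on chromosome 7 (chr7:105823264-106511671, GRCm38) in which 6 of 7 genes tested fell and none rose, with a median of -3.49. It was also singled out after its values were seen. 9130208D14Rik, an unprocessed pseudogene, went from 11165, 8750 and 3864 to 174, 990 and 841 (-3.78 ± 0.63, adjusted p = 0.0223), and was at 27107 to 37462 in untreated libraries. Gm45912 (-4.0 ± 0.76), Gm8995 (-3.57 ± 0.69) and Gm27149 (-3.06 ± 0.40) fell beside it. Pseudogenes of one family can share reads, so the values of single members here are uncertain. Slc14a1, the urea transporter of cell membranes, went from 160, 123 and 15 to 3, 6 and 0 (-4.49 ± 0.35, adjusted p = 0.0216), and the protocadherin Pcdh8 from 110, 103 and 11 to 0, 10 and 5 (-3.68 ± 0.97, adjusted p = 0.0464). For Slc14a1 the groups did not overlap, while for Pcdh8 line 4 lay near the PAM values.

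Immediate early genes are transcribed within minutes of a stimulus without new protein. Of 26 tested 6 fell and 7 rose. Fosb, an AP-1 subunit, was at 811, 248 and 160 with indirect CAP and at 47, 25 and 7 with PAM. The PAM values were far under all indirect values and near the untreated libraries (10 to 56), with line 4 below them, and the change of -3.89 ± 0.23 had the lowest adjusted p of the comparison (0.0203). Egr1, a zinc finger factor of the growth factor response, went from 1460, 1038 and 958 to 709, 684 and 512 (-0.85 ± 0.10, adjusted p = 0.0216), with all PAM values under all indirect values and above the 275 to 389 of untreated libraries. Fos, the AP-1 subunit that pairs with Jun proteins, went from 2190, 1173 and 1481 to 1129, 1003 and 957 (-0.60 ± 0.13, adjusted p = 0.0322). Its groups did not overlap either. Klf2 (-1.53 ± 0.30), at values of 13 to 19 against 4 to 6, Jdp2 (-0.52) and Ier2 (-0.48 ± 0.09) also fell. The 7 that rose were Ier3 (0.90 ± 0.18), Klf6 (0.72 ± 0.17), Maff (0.49), the phosphatases Dusp6 (0.48) and Dusp5 (0.44), the AP-1 subunit Fosl2 (0.44 ± 0.11) and Klf4 (0.43). With 18 libraries in the fit all 7 rises lost their call, as did Fos (adjusted p = 0.0565) and Jdp2, which left 4 fallen and none risen, and after quantile normalization 3 fell and 5 rose. Atf3, which is induced by many stresses, was at 274, 368 and 187 against 257, 443 and 223 (0.14 ± 0.11, adjusted p = 0.377).

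The promoters of 3 AP-1 genes are shown, since Fosb and Fos fell and Fosl2 rose. Each is the 250 bases before the transcription start in RefSeq, on GRCm38.p6, written 5′ to 3′ on the strand of the gene. Capitals mark TGACG, searched on both strands, the 5 bases shared by sites bound by CREB and ATF factors. The Fosb promoter is chr7:19310046-19310295 (minus strand), that of Fos chr12:85473640-85473889 (plus strand) and that of Fosl2 chr5:32136222-32136471 (plus strand).
Fosb: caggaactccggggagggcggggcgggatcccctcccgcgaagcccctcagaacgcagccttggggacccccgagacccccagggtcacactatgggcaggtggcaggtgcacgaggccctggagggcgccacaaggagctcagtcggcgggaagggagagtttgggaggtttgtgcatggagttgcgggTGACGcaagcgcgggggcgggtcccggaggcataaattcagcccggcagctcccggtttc
Fos: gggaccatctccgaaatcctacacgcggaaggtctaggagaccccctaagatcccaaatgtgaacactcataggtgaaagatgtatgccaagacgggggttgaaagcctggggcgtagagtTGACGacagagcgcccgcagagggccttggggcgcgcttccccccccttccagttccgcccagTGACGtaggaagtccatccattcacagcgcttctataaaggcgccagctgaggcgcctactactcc
Fosl2: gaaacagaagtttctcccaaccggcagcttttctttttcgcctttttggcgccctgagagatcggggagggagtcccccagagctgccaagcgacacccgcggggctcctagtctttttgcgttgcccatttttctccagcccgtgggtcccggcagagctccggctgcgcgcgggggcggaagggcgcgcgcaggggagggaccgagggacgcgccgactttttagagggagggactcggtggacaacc
Fosb holds 1 match and Fos 2, and Fosl2 holds none. Of 32851 RefSeq promoters of this length 17.8% hold TGACG on either strand. Among the called immediate early genes with a promoter in the table, 4 of the 4 that fell (Fos, Fosb, Jdp2 and Klf2) and 3 of the 7 that rose (Dusp5, Klf4 and Maff) held it in at least 1 of their promoters. Jdp2 and Maff have 3 promoters each in the table, whereas the share of 17.8% is per promoter, and Egr1 and Ier2, which fell, had no entry. A second motif, the CArG box (CC, a run of A or T, then GG), was searched as well. Within the 250 bases it was held by 0 of the 4 that fell and 1 of the 7 that rose (Dusp5), against 1.47% of the 32851 promoters. Bases further from the start were not searched, so these counts do not show that a gene lacks either motif. A match is a description of the letters only.

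Genes of the ATF4 branch of the stress response, which raise amino acid supply and one-carbon metabolism, were mostly lower with PAM. Of 28 tested 10 fell and 1 rose (median -0.42), and 6 fell and 1 rose after quantile normalization. Aldh1l2, a mitochondrial folate enzyme, went from 1395, 1469 and 939 to 324, 428 and 744 (-1.40 ± 0.31, adjusted p = 0.0314). All PAM values were under all indirect values and above the 70 to 151 of untreated libraries, and line 4 moved least. The transsulfuration enzyme Cth (-0.96 ± 0.22), the amino acid transporter Slc7a5 (-0.84 ± 0.17), the secreted Stc2 (-0.83 ± 0.10), the serine enzyme Shmt2 (-0.74 ± 0.10) and the factor Cebpb (-0.71 ± 0.11) fell. Ddit3, the factor CHOP of the same branch, was at 668, 928 and 603 against 404, 724 and 733, with no common direction (-0.27 ± 0.18, adjusted p = 0.301). The cystine transporter Slc7a11 was at 4325, 4202 and 5006 against 5901, 4640 and 5434 (0.24 ± 0.09, adjusted p = 0.108). Of 20 aminoacyl-tRNA synthetases 5 fell and none rose, none of 21 endoplasmic reticulum chaperones and unfolded protein response genes was called, and of 16 heat shock genes the mitochondrial chaperonins Hspd1 (-0.40) and Hspe1 (-0.38) fell, both of which lost the call with 18 libraries in the fit, and Hspe1 also after quantile normalization.

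The oxidative stress genes showed no common direction. Of 34 NRF2, glutathione and thioredoxin genes 5 rose and 2 fell (median 0.02), and 3 rose with 18 libraries in the fit or after quantile normalization. Hmox1, haem oxygenase, went from 236, 232 and 393 to 383, 367 and 485 (0.55 ± 0.11, adjusted p = 0.0274), with line 4 the highest in each group and an overlap between the groups. Gstk1, a glutathione transferase, rose by 0.75 ± 0.07 and Gstm2, of the same enzyme class, fell by 0.88 (SE 0.12). Of 13 scavenger enzymes the peroxiredoxin Prdx5 rose (0.34), and Prdx4 (-0.54) and Prdx3 (-0.29) fell, none of which was called with 18 libraries in the fit. The metallothioneins Mt1 (-0.89 ± 0.23, adjusted p = 0.0468) and Mt2 (-1.26 ± 0.32, adjusted p = 0.0438), which bind zinc and copper, fell, although not after quantile normalization, and the zinc importer Slc39a4 rose (0.72 ± 0.11). For Mt2 the values were 3936, 5195 and 1455 against 746, 3518 and 821, so that the lines were further apart than the media.

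Of 15 genes that the study names for cell death, 9 rose and 4 fell (median 0.44), and with 18 libraries in the fit 5 rose and 3 fell. The study chose these genes on libraries that include these, so the count is not independent evidence of a direction. Capn2, a calcium-dependent protease, went from 731, 446 and 1792 to 2884, 1335 and 2429 (1.33 ± 0.26, adjusted p = 0.0266). Line 2 with PAM was below line 4 with indirect CAP, so the groups overlapped. Capn13 (1.08 ± 0.23) and the netrin receptor Unc5b (0.64 ± 0.13) rose, and Hmga2, an architectural chromatin protein of growing cells (-1.25 ± 0.15), and the inflammasome adaptor Pycard (-1.11 ± 0.18) fell. Of 28 p53 targets, Plk2 (0.56 ± 0.15), the BH3-only protein Pmaip1 (0.53 ± 0.10) and Perp (0.41) rose and none fell. The cell cycle inhibitor Cdkn1a was at 4107, 5165 and 4087 against 5283, 5772 and 4598 (0.23 ± 0.08, adjusted p = 0.0816).

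All 7 mitochondrially encoded protein genes that passed the filter fell, with a median of -0.69. mt-Nd5, a subunit of complex I, went from 25523, 20772 and 16820 to 12776, 13850 and 9427 (-0.81 ± 0.11, adjusted p = 0.0216). The groups did not overlap, and 2 of the indirect values were below the 22970 to 26260 of untreated libraries. mt-Nd6, which alone is coded on the light strand (-1.17 ± 0.16), and mt-Co1 of complex IV (-0.50 ± 0.13, adjusted p = 0.0461) lay at the ends of the range. The other 6 genes of this list were under the filter on low values.

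Of 34 interferon-stimulated genes 2 rose and 2 fell, against 5.07% called higher and 12.9% called lower of all genes tested. These counts are near or under those shares, so the list as a whole did not stand out. Ifitm3, a membrane protein of the antiviral response that is also high in stem cells, went from 390, 334 and 97 to 18, 53 and 42 (-2.73 ± 0.53, adjusted p = 0.026), with an untreated mean of 752. Its groups did not overlap. Ifitm2 fell (-0.81 ± 0.12), and Oasl1 (1.04 ± 0.19) and Isg20 (1.02) rose. Of 25 PPAR and lipid handling genes 3 rose and none fell, namely the pyruvate dehydrogenase kinase Pdk4 (2.30 ± 0.46), the lipase inhibitor Angptl4 (1.21 ± 0.15) and the lipid droplet protein Cidec (0.58). Of 29 glycolysis and hypoxia genes 5 rose, among them the glucose transporter Slc2a1 (0.55 ± 0.08), and 2 fell, against 1 and none with 18 libraries in the fit. Of 24 cholesterol synthesis genes 1 rose and 2 fell, which is under the shares of all genes tested. Of 6 aquaporins Aqp3 rose (0.74) and Aqp4 and Aqp1 (-1.16) fell.

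**Figure D3:**
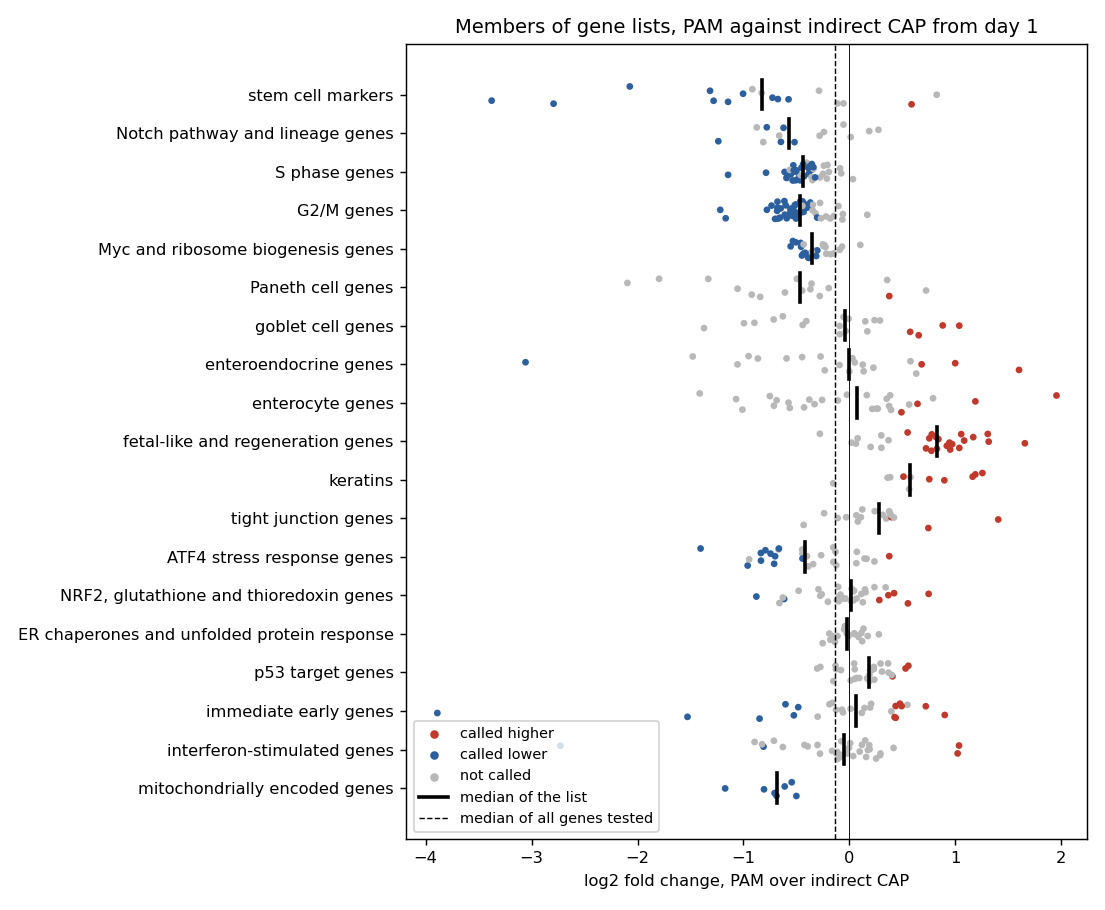
Log2 fold change of PAM over indirect CAP from day 1 (x axis) for the members tested of the gene lists (rows), coloured by call, with a bar at the median of each list and a dashed line at the median of all genes tested (-0.14). The stem cell markers (median -0.83) lie furthest to the left and the fetal-like and regeneration genes (0.83) furthest to the right of 0.

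The same media were also compared from day 2, as the comparison most like this one, in 6 other libraries, which enter the day 1 results only through the spread in the fit of 18 libraries. In the fit of 18 treated libraries 125 genes (0.651%) were higher and 1486 (7.74%) lower with PAM than with indirect CAP from day 2. With limma on the 6 day 2 libraries alone, fitted as those of day 1 were, no gene was called. In that fit 3644 of 17755 were at an unadjusted p under 0.05, and the lowest adjusted p was 0.106. The day 2 calls below are therefore those of the fit of 18 libraries only. Of the 894 genes called higher from day 1, 77.1% were also higher from day 2, against 55.2% of all genes that were higher from day 1. Of the 2275 called lower, 92.7% were lower again, against 78.0%. At an adjusted p under 0.05 from day 2, 47 of the 894 moved the same way and 5 the opposite way, and 774 of the 2275 moved the same way and 0 the opposite way. The cell cycle lists were lower from day 2 as well (medians of -0.72 for S phase and -0.69 for G2/M), with 33 and 43 members called lower, against 12 and 24 from day 1 in the same fit. So were the stem cell markers (median -0.80), with 8 called lower against 10 from day 1 in that fit. For the Wnt target genes the median from day 2 was -0.78, with 11 called lower against 4 from day 1. Whether the days differed for these lists was tested for single genes only. The fetal-like and regeneration genes had a median of 0.16 from day 2, with 1 member called higher and 1 lower, and the mitochondrially encoded genes a median of -0.10 with none called. The goblet cell genes had a median of -1.05 with 9 called lower, and the Paneth cell genes a median of -0.98 with 2 lower. None of either list was called higher. Of the enterocyte genes 4 were called higher and none lower.

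The difference between the days was tested as an interaction over 19206 genes, and 2 of them, 0.0104%, passed an adjusted p under 0.05. For Slc14a1 the log2 fold change was -4.49 from day 1 and -1.18 from day 2, a difference of -3.31 ± 0.43 (adjusted p = 0.0224). Its day 2 means were 16.0 with indirect CAP and 6.0 with PAM, both near the filter limit. Per2, a repressor of the circadian clock, was at 874, 866 and 659 with indirect CAP and at 489, 469 and 387 with PAM from day 1, where it fell by 0.83 (SE 0.08, adjusted p = 0.0216) with groups that did not overlap. From day 2 its means were 500.3 and 636 and the fitted change was 0.34, and the difference between days was -1.17 ± 0.16 (adjusted p = 0.0264). For the regeneration, mitochondrial and goblet cell lists, whose medians were unlike on the 2 days, no member passed this test, so a difference between the days was not shown for them.

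**Figure D4:**
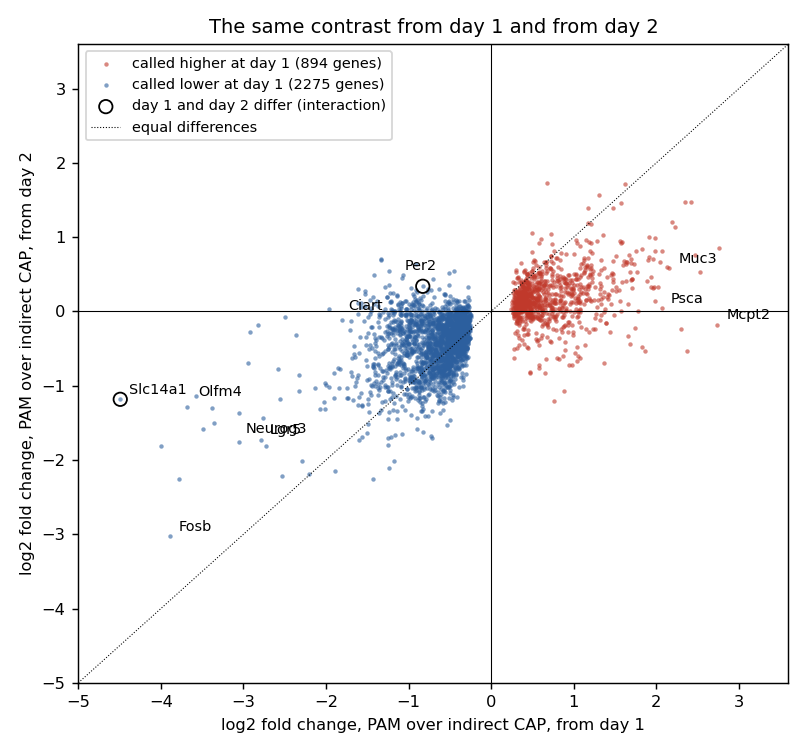
Log2 fold change of PAM over indirect CAP from day 2 (y axis) against that from day 1 (x axis) for the 894 genes called higher and the 2275 called lower from day 1, with a dotted line where the changes are equal. Genes called lower lie mostly in the lower left part, those called higher spread around 0 on the y axis, and circles mark Slc14a1 and Per2, for which the days differed.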

How the data were processed

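RNA-seq of 22 libraries of mouse duodenal organoids was used, of which the 3 of PAM and the 3 of indirect CAP from day 1 were compared. Per the labels, libraries were made with the Ovation SoLo kit (the study's methods name this kit or NEBNext) and read as pairs of 100 bases, and the submitters' processing notes name Trimmomatic 0.36, STAR 2.5.3a and HTSeq 0.9.1 with GRCm38. The deposited value is a score per gene and library, named CP20M by the authors, for 52636 genes. The values are whole numbers that sum to between 20011302 and 20016513 in the 6 libraries, and their spacing is that of read counts scaled to 20 M and rounded up, not divided by gene length. Raw counts were not used here, so edgeR, which the authors ran, was not run. Reads per library were estimated from the spacing of the low values, and the estimate came within 1% in 11 of 13 simulated libraries. A value near 10 stands for about as many reads, so counting error is large there.

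A pseudocount of 1 was added, the log2 taken and limma 3.58.1 applied in R 4.3.3 (trended moderated test, two-sided, Benjamini-Hochberg adjustment over all genes tested), with the organoid line as a block. A gene entered if at least 3 of the 6 libraries reached 10. Fold changes understate the change of genes with low values. A gene was called at an adjusted p under 0.05, and the study's threshold was an adjusted p under 0.01 with a log2 fold change of at least 1. The numbers of the lines come from the labels, and libraries of the same line come from the same mouse. After removal of group means their correlation over 13196 genes was 0.592, 0.829 and 0.791 in lines 1, 2 and 4, against -0.66 to 0.09 between lines. The block leaves 2 residual degrees of freedom, with a median of 4.55 from the prior. In data simulated for this comparison with 17634 genes, 12, 42, 49 and 50 of 50 genes changed by 0.5, 1, 2 and 3 on the log2 scale were called, with 7 false calls. The simulated noise was independent between genes, and only 200 genes, each with a mean of 50 or more, were changed. These false calls therefore do not measure those in the real data. No library was a copy of another.

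The comparison from day 2 and the interaction were fitted over the 18 treated libraries with the same block. The comparison from day 2 was also fitted on its own 6 libraries. Alternatives were no block, all 18 treated libraries, quantile normalization, a pseudocount of 10, no filter, a filter at 50 and each line left out. The members and gene lists were chosen with earlier results of these data known, and lists were described by counts and medians with no set test. Genes named are the 10 largest rises and falls among called genes with a mean of 50 or more in the higher group, up to 4 called members of each list with its most abundant member, 16 fixed genes, and the genes of the interaction. Further members and the stretches on chromosomes 7 and 15 were named after their values were seen. Results for 1 gene that the rule names are not reported here. Genes were matched by identifier to GENCODE vM21 on GRCm38 (52489 of 52636), and promoters by symbol to RefSeq. Figures were drawn with Python 3.11.15 and matplotlib 3.10.9.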

Additional observations from a re-analysis of the deposited data

Results flagged for a closer look

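Slc14a1, the urea transporter, and Per2, the clock repressor, differed between the days on which the media were given, by the interaction test of limma over 19206 genes. The day 1 change minus the day 2 change was -3.31 for Slc14a1 and -1.17 for Per2 on the log2 scale. Both were lower with PAM in 3 of 3 lines from day 1. The difference between the days depends on the fit. No gene passed the interaction test in the 12 libraries of PAM and indirect CAP alone, without the block, or without line 1 or line 2.

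Fosb in the untreated library of line 2 stood apart from the other untreated libraries, with a value of 56 against 11, 16 and 10. It was the 1 gene of 17 checked in the untreated libraries for which a single library stood apart, and chance alone marks about 1 in 20 groups of this size. The untreated libraries enter no test here.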

How the results depend on the processing

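Past the study's threshold 0 genes were found, and with all 18 treated libraries, the block kept, 141. The 3169 genes called at an adjusted p under 0.05 (607 with a log2 fold change of at least 1 as well), the 238 calls in the lists and the 129 named genes called became 0 without the replicate block and 0 without a filter, where 32936 genes were tested, and 1946 genes were called after quantile normalization. The cause was not tested, except that the unfiltered fit tests more genes. Leaving out each line in turn gave 0 (without line 2) to 3191 genes called, 0 to 497 past the threshold (497 without line 4), 0 to 282 calls in the lists and 0 to 120 named genes called. In alternatives added after seeing the data, the fit of 18 libraries called 2 genes without line 1, 3 without line 2 and 3012 without line 4, of which 0, 0 and 470 passed the threshold, and rescaling without mitochondrial genes and genes that overlap ribosomal RNA left 3369. The pseudocount of 10 (3335 called) and the filter at 50 (2710) stayed within 1.5 times.

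The interaction gave 2 genes, 0 without the block, 0 in the 12 libraries of PAM and indirect CAP alone, 1 with a pseudocount of 10, and 0 to 228 on leaving out a line. Of the single genes, Chga lay between -0.13 (without line 2) and 0.38, Lyz1 between -0.83 and 0.028 (without line 1) and Ly6e between -0.058 (without line 1) and 0.086 on leaving out a line, and Slurp1 was at 0.084 after quantile normalization, so that each changed sign, and none of them was called. Of 150 genes named, 138 lost their call without the block, 138 without a filter, 133 without line 2, 44 with 18 libraries, 28 after quantile normalization and 1 with a pseudocount of 10. Those lost with 18 libraries were Clca1, Zg16, Tff3, Bcas1, Krt20, Clu, Ly6a, Areg, Ctgf, Ptgs2, Cdh16, Cth, Capn13, Unc5b, Plk2, Fos, Ier3, Klf6, Fosl2, Mki67, Npas2, Gkn1, Anxa8, Cldn18, Cldn23, Cldn4, Cyp3a11, Dusp5, Dusp6, Hspd1, Hspe1, Il17rb, Jdp2, Klf4, Krt79, Maff, Nts, Nupr1, Pcsk1, Prdx3, Prdx4, Prdx5, Slc15a1 and Tas1r3. Those lost after quantile normalization were Msi1, Prom1, Znrf3, Rbpj, Dll1, Clu, Krt7, Ptgs2, Pcdh8, Cth, Mt1, Mt2, Plk2, Fos, Klf6, Fosl2, Klf2, mt-Co1, Ciart, Anxa5, Hspe1, Il17rb, Jdp2, Krt18, Prdx3, Prdx4, Tas1r3 and Tnfrsf19.

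With 3 lines and 2 residual degrees of freedom, the adjusted p-values lie close together and cannot rank the genes. Values near 10 rest on few reads, so folds of Slc14a1, Pcdh8 and Klf2 are imprecise. The mitochondrial share of the libraries and the length of exposure in the labels bear on the mitochondrial genes and on the comparison of days, and their part was not tested.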

Other observations

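Other gene groups, chosen after the values were seen and so described without a test of the group, also differed. Of 66 canonical histone cluster genes 57 were called lower with PAM and none higher, with a median log2 fold change of -0.84 (48 lower after quantile normalization, median -0.73), and 64 of 66 were lower from day 2 as well. These transcripts are made in S phase and mostly lack a poly(A) tail. Of 18 mitochondrial tRNA genes 17 fell and none rose (median -0.83).

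Of 14 genes of gastric and surface mucous cells 8 rose and 1 fell (median 1.4), against a median of 0.22 from day 2. Tff1, a trefoil peptide of the stomach surface, was at 1568, 1346 and 8915 with indirect CAP and at 6332, 3715 and 14546 with PAM in lines 1, 2 and 4 (1.39 ± 0.22, limma adjusted p = 0.022). Line 4 held the highest value in each group, and the groups overlapped. The aspartic protease Ctse (1.97 ± 0.32), the surface antigen Psca (2.07 ± 0.28), Dpcr1 (2.07 ± 0.37) and gastrokine 1 (Gkn1, 1.51 ± 0.19) rose with it in 3 of 3 lines. The 1 that fell was gastrokine 3 (Gkn3, -1.38 ± 0.28, adjusted p = 0.0274), at low values of 19, 36 and 17 against 6, 17 and 5. With 18 libraries in the fit 5 of the 14 rose and none fell.

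Of 17 clock genes 6 fell and 1 rose from day 1 (median -0.23), 2 fell after quantile normalization, and with 18 libraries in the fit 5 fell and none rose. Of the 17, 3 had the same direction from day 2 (median 0.22). Ciart, a repressor of the clock, went from 211, 201 and 145 to 76, 77 and 110 (-1.08 ± 0.22, adjusted p = 0.0293), and Npas2, an activator, rose by 0.45 ± 0.11 (adjusted p = 0.0371). For Ciart all PAM values were under all indirect values. The hour at which the cultures were collected is not given in the sources used here.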
